A study of Rattus norvegicus with 30 samples.

Results

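The clustered protocadherin locus was described as 139 methylated regions of rat chromosome 18. Peaks of methylated DNA from 30 libraries were merged wherever they shared at least 1 bp, and a merged region was kept if it touched the window chr18:29500000-30800000 on the Rn6 build and held a called peak in 2 or more libraries. Across the autosomes 432103 merged regions met the same minimum of libraries. A further 44 merged regions of the window held a peak in a single library and were outside the rule.

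Clustered protocadherins are cell-surface adhesion proteins of neurons, encoded in tandem arrays named alpha, beta and gamma. In the alpha and gamma arrays a variable first exon, chosen from many, is spliced to constant exons shared within the array, whereas the beta genes are single-exon genes. Each variable exon has its own promoter, and the combination of promoters in use gives a neuron a surface identity with which its branches recognize and avoid each other. In the brain, methylation of cytosines at these promoters is known to accompany their silencing.

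The libraries came from the prefrontal cortex (PFC) of Sprague-Dawley rats at postnatal day 22. Offspring of dams with free access to a liquid ethanol diet formed the prenatal alcohol exposure (PAE) group. Pair-fed (PF) dams received a liquid diet with maltose-dextrin in place of ethanol, rationed to the intake of a PAE partner, and control (CON) dams had free access to the pelleted control diet. The diets were given during gestation only. There were 10 libraries per group, 5 labelled female and 5 labelled male, and each of 15 dams gave 1 animal of each labelled sex.

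The rat annotation used here (RefSeq, GRCr8) lists 39 clustered protocadherin entries on chromosome 18: 1 alpha entry, 22 beta genes and 16 gamma entries, in the order alpha, beta, gamma. Of the gamma entries, Pcdhgb1 is a pseudogene. Other genes lie between the arrays (such as Taf7 and Slc25a2) and beside them (such as Zmat2 and Diaph1). Regions of the window were not assigned to genes, so a region need not belong to a protocadherin gene. Promoter windows of 300 bases (250 before and 50 after the start) were at hand for 34 of these genes, 35 windows in all, and held a median of 6 CpG dinucleotides, the sites that can be methylated, with a range of 1 to 28. The median over all 33469 rat promoters was 7. Gamma promoters held a median of 8 and beta promoters a median of 5, and the highest count, 28, was that of Pcdhgc3, a C-type gamma gene.

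Short elements that recur from promoter to promoter mark this family, and they are shown because their CpG sites are where promoter methylation could be read. A search of both strands found the letters GTGGCGCTG in 15 of 19 beta promoters and in 0 of 15 gamma promoters, against 0.517% of all rat promoters. The letters GCCGCTGTT were found in 6 of 15 gamma promoters and 0 of 19 beta promoters, against 0.245% of all. The motifs share the letters CGCTG. The shorter CGCT was found in 28 of the 35 promoters and in 60.9% of all. Both motifs were chosen after the sequences had been seen. The stretches of 30 bases that follow are from RefSeq GRCr8, on the gene's own strand, with the motif in capitals.
Pcdhb2: agaacgcaggGTGGCGCTGcagcctcagaa
Pcdhb5: tgaacgcaggGTGGCGCTGcaggctaagat
Pcdhb7: tggacgcaggGTGGCGCTGcaggctaagat
Pcdhb12: aggacgcttgGTGGCGCTGcaggctaagaa
Pcdhga7: gactctgcgtGCCGCTGTTcaccaaccatg
Pcdhga8: gactctaagcGCCGCTGTTcacctgctaag
Pcdhga10: gactctgagcGCCGCTGTTcacctaccagg
Pcdhga12: gactctgagcGCCGCTGTTcacccacgggg
The neighbouring bases are also much alike within each array. The build of these sequences differs from that of the peaks, so which of the 139 regions cover a promoter was not analysed here. Reads that align equally well to several of these similar exons would have been lost to the authors' mapping-quality filter, and the part of such losses in the values given here was not tested.

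Each library was summarized by 11548314 to 16555049 filtered fragments. The value of a region in a library is its normalized height: the highest pileup of fragments under a called peak, per 1000000 filtered fragments. A library without a peak, or with a lower one, was set to 0.438, the highest of the libraries' own lowest called heights. The height of a library without a peak was not measured and may lie above or below this floor, so low values are not measured absences. DNA was taken from whole tissue, so a change in methylation within cells and a change in the mix of cells cannot be told apart, and peaks carry no marker transcripts with which to check the tissue. Before any comparison, the sex chromosomes went against the labels in 18 of the 30 libraries: 7 libraries had 2.65% to 3.14% of their peaks on chromosome X and 4 to 11 peaks on Y, of which 5 were labelled male, and 23 had 0.774% to 1.15% on X and 38 to 87 on Y, of which 13 were labelled female. Sex is therefore called labelled sex throughout, and whether the labels of group or dam are affected as well was not tested. The 12 libraries that matched their label were 3 CON, 3 PF and 6 PAE.

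Across the locus, 28 of the 139 regions (20.1%) held a called peak in every one of the 30 libraries, 38 in 15 to 29, 36 in 6 to 14, 18 in 3 to 5 and 19 in exactly 2. The regions called in every library were not spread evenly. Divided into stretches of 100 kb from the start of the window, the locus had 10 of them between 400 and 600 kb and 13 between 800 and 1100 kb, and none at 200 to 300, 600 to 700 or 1100 to 1200 kb. The first 100 kb held the most regions, 29, but only 1 of them was called in every library, and the median region there was called in 7 libraries.

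**Figure D1:**
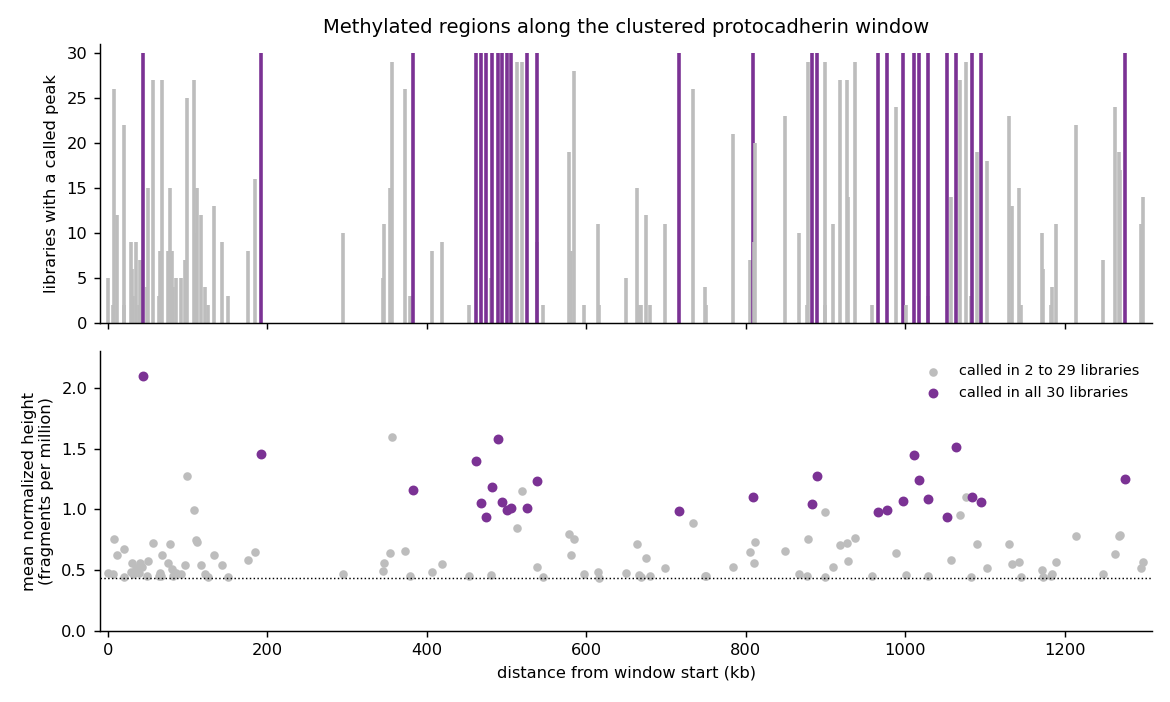
Each line of the upper panel is a region of the locus at its distance from the window start (kb), and its height is the number of libraries, out of 30, with a called peak. The lower panel gives the mean normalized height (fragments per 1000000, mean of 30 libraries), with the floor of 0.438 dotted. The 28 regions called in every library (purple) lie mostly at 400 to 600 kb and 800 to 1100 kb and have mean heights of 0.936 to 2.10.

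The closest packing of constantly called regions was a run of 8 at chr18:29960867-30006775, from 461 to 507 kb into the window. Consecutive regions began 5.25 to 7.51 kb apart, each was 925 to 1522 bp long, and the only other region inside the run was called in 5 libraries. Their mean heights were 1.40, 1.05, 0.939, 1.18, 1.58, 1.06, 0.991 and 1.01 from first to last. The next-nearest packing was in pairs: 4 pairs of always-called regions lay within 10 kb of each other between 882 and 1064 kb.

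Of the always-called regions of the locus, 16 of 28 (57.1%) had another within 10 kb. The same was true of 17.1% of the 11914 always-called autosomal regions and of 11.8% of the 356 on the rest of chromosome 18. The median distance to the nearest such region was 9718 bp at the locus and 54033 bp over the autosomes. These shares describe the positions and carry no test, since neighbouring regions are not independent.

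The tallest region of the locus, chr18:29543726-29544520, stood apart from this run, 44 kb into the window. Its mean height was 2.10 ± 0.411 (SD, n = 30), from pileups of 15 to 43 fragments. The point of its maximum moved little between libraries, with an SD of 21.4 bp, against a median SD of 158 bp over the 28 always-called regions. Heights were 1.30 to 2.73 in CON (median 1.95), 1.60 to 2.83 in PF (median 1.99) and 1.85 to 3.14 in PAE (median 2.12). The groups overlapped over most of their range, and the limma difference between PAE and CON was 0.11 ± 0.168 (log2, SE; unadjusted p = 0.506).

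The next 5 by mean height among the always-called regions were chr18:29988356-29989574 (1.58 ± 0.347), chr18:30562593-30564198 (1.51 ± 0.406), chr18:29691017-29692225 (1.45 ± 0.318), chr18:30510553-30511697 (1.45 ± 0.268) and chr18:29960867-29962388 (1.40 ± 0.345; all SD, n = 30). The first and last of these belong to the run of 8. A region called in 29 of 30 libraries, chr18:29855675-29856496, had a mean of 1.60 ± 0.482, second only to the tallest, and is named after its values were seen. Its single missing library was in CON.

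Long regions were the rule among those seen in every library. They measured 659 to 1928 bp (median 1195), against 279 to 576 bp for regions called in 2 libraries and 232 to 380 bp for the 44 called in 1. The longest, chr18:30381622-30383549 (1928 bp), was always called with a mean height of 1.05. The next longest, chr18:30283528-30285362 (1835 bp) and chr18:29871249-29873064 (1816 bp), were called in 21 and 26 libraries with means of only 0.524 and 0.655. Length went with the number of libraries calling a region (Spearman's rho 0.807 over 139 regions, a description, since a region merged from more peaks grows in length), but among the 28 it did not go with height (rho -0.02).

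Merging can join peaks that sit side by side in different libraries. Counting only peaks that cover at least 50% of the merged region, 2 of the 28 were still present in every library, and the median of the 28 was 27.5 libraries, beside 27 for the always-called regions of all autosomes. In 5 of the 28, fewer than 15 libraries had such a peak. Under this count 1.44% of the regions of the locus were present in every library, against 0.724% of all autosomal regions.

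The locus held few regions for its size. It had 107 per Mb, against 170 on the rest of chromosome 18 and 165 over the autosomes, and the regions covered 7.96% of the window against 9.50% of the autosomes. Among 2001 tiles of the autosomes of the same 1.3 Mb, the median tile held 224 regions (quartiles 150 and 280), and 21.6% held fewer than the 139 seen here. The order was the other way for regions called in every library: the median tile held 5 (quartiles 3 and 8), and 99.1% held fewer than 28.

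**Figure D2:**
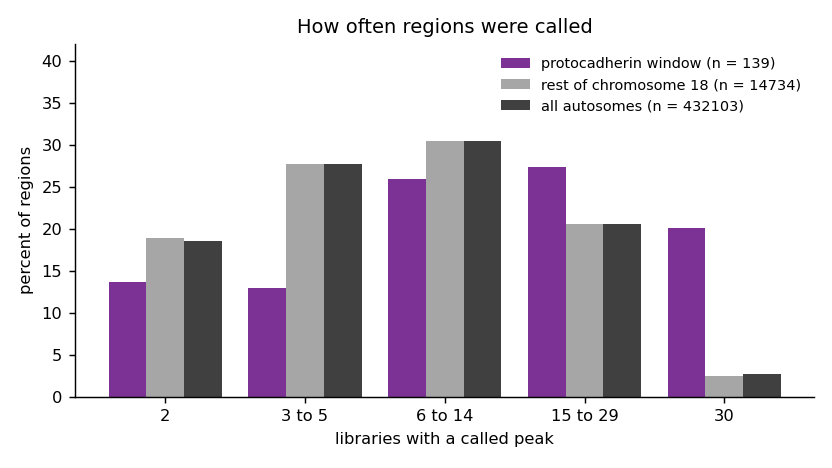
The bars give the percent of regions by the number of libraries with a called peak, for the 139 regions of the protocadherin window, the 14734 regions of the rest of chromosome 18 and all 432103 autosomal regions. Regions called in all 30 libraries made up 20.1% of the window and 2.76% of the autosomes, and regions called in 3 to 5 made up 12.9% and 27.7%.

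The always-called regions of the locus were not taller than those elsewhere. The median mean height of the 28 regions was 1.09, below the 1.32 of their counterparts on the rest of chromosome 18 and the 1.34 of those over all autosomes. Within the locus, the number of libraries calling a region went with the median height of its called peaks (Spearman's rho 0.690 over 139 regions, a description). Enrichment over the local background, as the peak caller gave it, was 4.01 to 8.25 (median 6.58) for the 28, 3.06 to 9.52 (median 4.65) for regions called in 3 to 29 libraries and 3.14 to 5.97 (median 4.01) for those called in 2. Within the 28, the spread between libraries was a coefficient of variation of 18.5% to 34.3% (median 25.4%), and the counting error alone at these pileups (6 to 43 fragments, median 16) would be 18.8% to 28.3% (median 26.6%). Differences between single libraries at 1 region were thus about as large as the counting error.

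The widest stretch with no region was 103 kb, chr18:29692226-29794929, followed by 49.9 kb at chr18:29795455-29845316, and both were free of regions called in a single library too. Between them sat 1 region, called in 10 libraries. Stretches of 37.1 kb and 34.3 kb followed, at chr18:30311825-30348968 and chr18:29918699-29953022, against a median gap of 5411 bp.

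To compare the prenatal groups, the number of regions called per library was examined first. CON libraries called 68 to 96 of the 139 regions (75.4 ± 9.19, SD, n = 10), PF libraries 55 to 88 (73.1 ± 9.40) and PAE libraries 53 to 84 (69.0 ± 11.2). The ranges overlapped, but 5 PAE and 2 PF libraries called fewer regions than any CON library. The same order held for the number of autosomal regions called (143060 ± 24385, 136484 ± 17700 and 128600 ± 24650), and the regions of the locus per 1000 autosomal regions called were 0.533 ± 0.0518, 0.536 ± 0.0344 and 0.540 ± 0.0365. Over the autosomes too, PAE_F 9 (107102), PAE_M 2 (104843), PAE_M 3 (99279) and PF_F 28 (109311) called fewer regions than any CON library (lowest 110786). The part of library-wide calling in the counts at the locus was otherwise not tested.

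**Figure D3:**
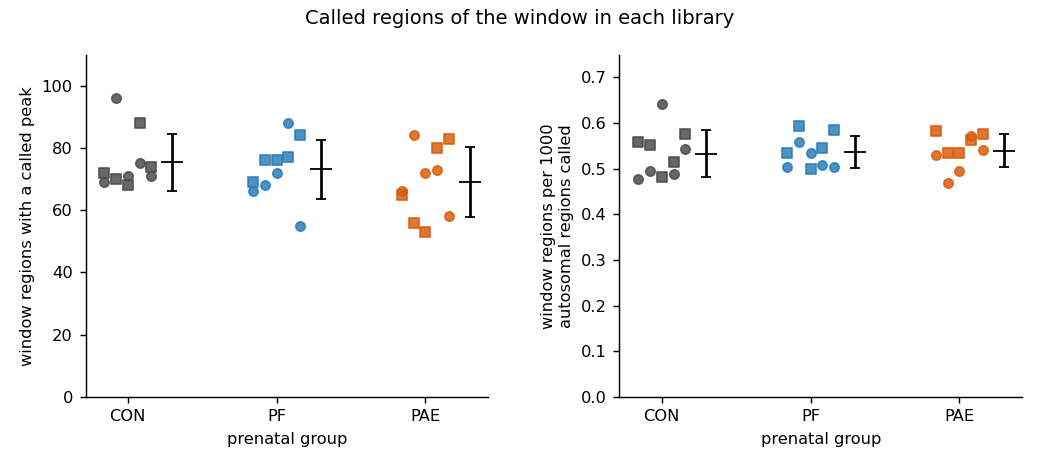
Each point is a library (circles labelled female, squares labelled male), with the mean and SD of 10 libraries beside each group. The left panel counts window regions with a called peak, 53 to 96 per library. In the right panel the counts per 1000 autosomal regions called in the same library have group means of 0.533 to 0.540.

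Most regions were shared by the groups. Each group had a peak at 110 of the 139 regions, CON lacked one at 9, PF at 9 and PAE at 15, and 4 regions were called in a single group, 3 of them in CON and 1 in PAE. All 10 libraries of the group called 38 regions in CON, 38 in PF and 32 in PAE. The matching shares over all autosomal regions were not counted. PAE libraries also called fewer autosomal regions (128600 ± 24650, against 143060 ± 24385 in CON), so these counts are not a result about the locus.

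The comparison of PAE with CON asks whether alcohol exposure was accompanied by a change of methylation at the locus. Of the 139 regions, 120 were called in 3 or more libraries and were tested with limma, together with 351688 autosomal regions, with labelled sex and lane as covariates. No region of the locus passed a false discovery rate (FDR) of 0.05 (0 of 120, against 0.000284% of all regions tested), and the lowest adjusted p was 0.667. At an unadjusted p under 0.05 there were 9 (7.5%), 8 lower and 1 higher in PAE, against 7.32% of all regions (5.98% lower and 1.34% higher). Fisher's exact test of called peaks gave 1 at that level (0.833%, against 0.864% of all regions), and 0 after adjustment. The median log2 difference was -0.10 over the 120 and -0.05 over all regions, and 66.7% of the 120 were lower in PAE, against 63.3% of all.

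The size of this shift changed with the scaling. With scaling by the median ratio over always-called regions, the median over the 120 was -0.02 and 4 regions (3.33%, against 6.09% of all) had an unadjusted p under 0.05, 3 lower and 1 higher. Quantile normalization gave the same counts, against 5.7% of all, and a median of -0.00398. Without the 18 libraries against their labelled sex, 10 of 116 regions had an unadjusted p under 0.05, against 5.43% of all regions, and 0 passed the FDR. That fit kept 3 CON, 3 PF and 6 PAE libraries with lane as a term, so its values rest on few libraries. PF_M 28 was then alone in lane 7, and CON and PF shared only lane 6, with CON_M 41 and PF_M 27.

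**Figure D4:**
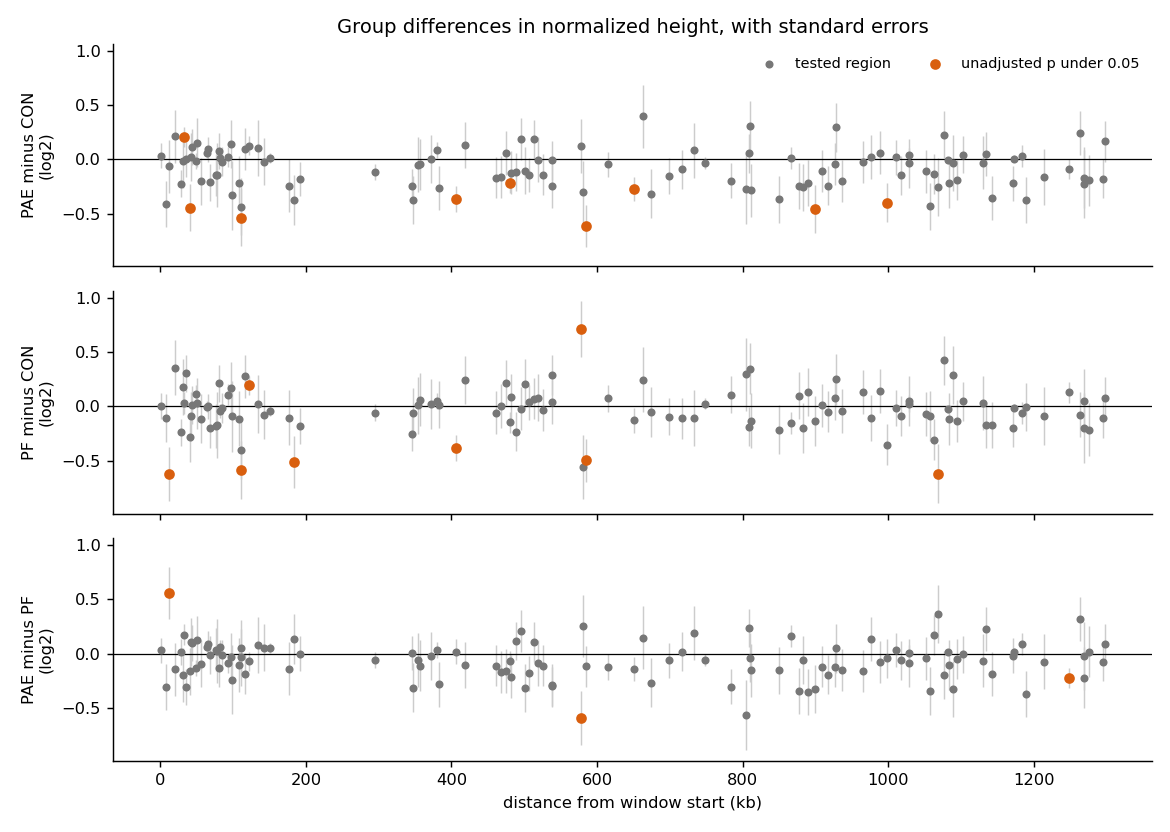
Each point is 1 of the 120 tested regions at its distance from the window start (kb), with the limma difference (log2) and its SE for PAE against CON, PF against CON and PAE against PF. Orange points have an unadjusted p under 0.05 (9, 8 and 3 regions), and none passed the FDR. Most differences lie between -0.5 and 0.5.

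The lowest p belonged to chr18:30083770-30084671, a region of 902 bp at 584 kb called in 28 libraries. Heights were 0.526 to 1.20 in CON (median 0.897), 0.512 to 1.24 in PF (median 0.673) and 0.438 to 0.953 in PAE (median 0.697). Both alcohol-exposed and pair-fed libraries lay lower at the median, but every range overlapped the others. The PAE difference was -0.61 ± 0.190 (log2, SE; unadjusted p = 0.0027, adjusted p = 0.667), negative in 4 of 4 lanes that held both groups, at -0.98 to -0.21. The region was picked by its p in these same libraries, so the lanes give no separate support. Without the 18 libraries the difference was -0.76 (adjusted p = 0.654), and with only peaks covering at least 50% of the region it was -0.10 (adjusted p = 0.944).

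At chr18:29905638-29906585, 406 kb into the window, 6 CON, 2 PF and 0 PAE libraries had a peak. CON heights were 0.438 to 0.858 (median 0.591). The PF and PAE libraries were all at the floor of 0.438, since both PF peaks were lower than the floor, and 4 CON libraries were there too. The difference between PAE and CON was -0.37 ± 0.118 (adjusted p = 0.667), a value that depends on the floor.

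Sparse calling was shared by a pair of further regions on the list. Peaks came from 3 CON, 2 PF and 0 PAE libraries both at chr18:30150070-30150411 and at chr18:29980337-29981013, with highest CON heights of 0.791 and 0.935. The differences were -0.27 ± 0.112 and -0.22 ± 0.0927 (adjusted p = 0.667 and 0.669). Without CON_F 43 they were -0.18 and -0.07, and without the 18 libraries -0.11 and -0.13. The second lies inside the run of 8.

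Another, chr18:30497054-30498426, was the only one of the 28 always-called regions with an unadjusted p under 0.05 in this comparison. Its heights were 0.725 to 1.54 in CON (median 1.33), 0.778 to 1.39 in PF (median 0.968) and 0.619 to 1.57 in PAE (median 0.940). The highest library of all was a PAE library, so the ranges overlapped in full. The difference was -0.40 ± 0.181 (adjusted p = 0.673), negative in 4 of 4 lanes, and that of PF against CON, which shares the CON libraries, was -0.35 ± 0.188. Since this region too was picked by its p, the lanes are a description only.

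**Figure D5:**
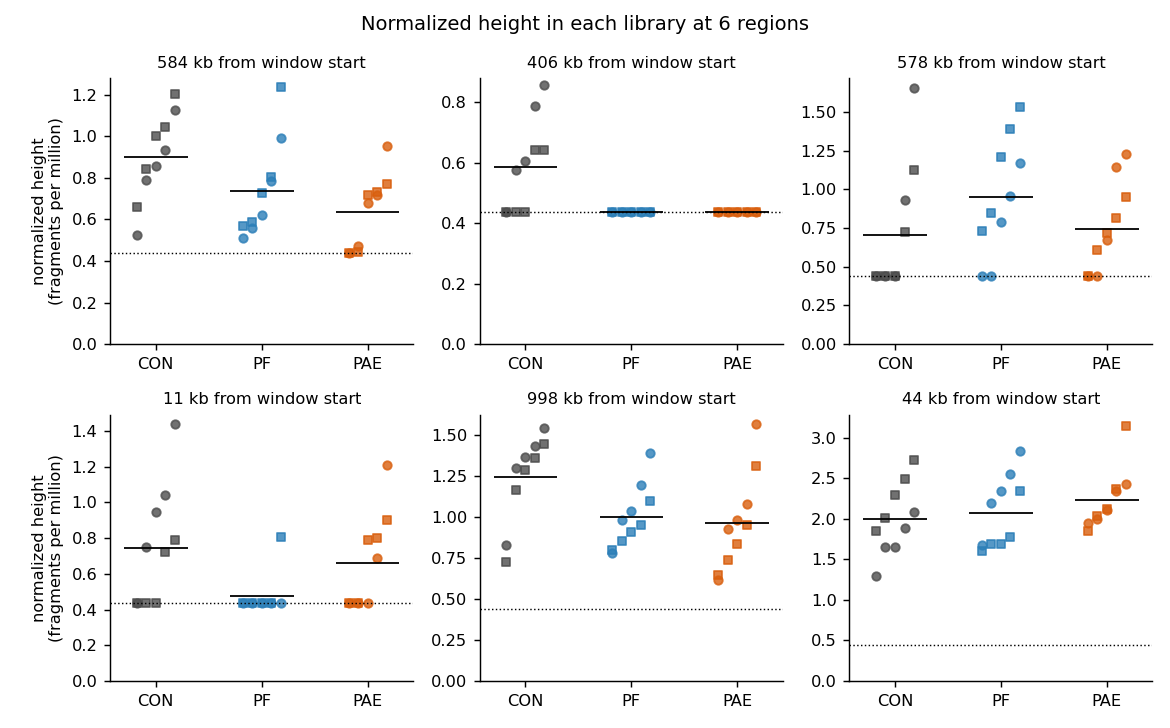
Normalized height (fragments per 1000000) in each of 30 libraries at 6 regions, named by their distance from the window start, with group means as bars and the floor of 0.438 dotted (circles labelled female, squares labelled male). At 406 kb all PF and PAE libraries lie at the floor. At 44 kb, the tallest region, the groups span 1.30 to 3.14 and overlap.

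The comparison of PF with CON sets a rationed liquid diet without alcohol against free access to pellets, so ration and form of diet cannot be told apart. No region of the locus passed the FDR with limma (0 of 120, against 0% of all regions), and the lowest adjusted p was 0.776. At an unadjusted p under 0.05 there were 8 (6.67%), 6 lower and 2 higher in PF, against 6.43% of all (4.37% lower and 2.06% higher), and Fisher's exact test gave 1 (0.833%, against 0.786% of all). The median difference was -0.03 for the locus and for all regions alike. It turned to 0.00311 with median-ratio scaling and to 0.01 with quantile normalization, where 6 and 4 regions were lower and 3 and 4 higher (7.5% and 6.67% in either direction, against 5.32% and 4.93% of all). Without the 18 libraries there were 4 of 116, against 3.82% of all.

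The region with the lowest p, chr18:29905638-29906585, is described above, and its PF difference was -0.38 ± 0.122 (unadjusted p = 0.0035, adjusted p = 0.776). The third, chr18:30083770-30084671, differed by -0.50 ± 0.197. The largest positive difference of the locus lay between them in rank and 5.18 kb from the third, at chr18:30078040-30078589.

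That region of 550 bp was called in 4 CON, 8 PF and 7 PAE libraries. Heights ranged from 0.438 to 1.65 in CON (median 0.438), to 1.53 in PF (median 0.900) and to 1.23 in PAE (median 0.695), with libraries at the floor in every group. The highest library was a CON library, so the groups overlapped. PF exceeded CON by 0.71 ± 0.257 (log2, SE; unadjusted p = 0.0090, adjusted p = 0.776), and without the 18 libraries by 0.40. The next region along, chr18:30080701-30081070, was called in 4, 1 and 3 libraries, so 3 neighbouring regions within 6.63 kb had different patterns of calls.

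At chr18:29510923-29511577, near the start of the window, 6 CON, 1 PF and 5 PAE libraries had a peak. Heights reached 1.44 in CON (median 0.738), 0.806 in PF (median 0.438) and 1.21 in PAE (median 0.563). All but 1 of the PF libraries were at the floor, as were some libraries of the other groups. The PF difference from CON was -0.62 ± 0.251 (adjusted p = 0.776). At chr18:30567912-30568809, called in 27 libraries, it was -0.62 ± 0.273, with medians of 1.06 in CON, 0.743 in PF and 0.919 in PAE. Without the 18 libraries it was -1.57 (adjusted p = 0.548), where PF_M 27 was the only PF library in a lane with CON.

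The comparison of PAE with PF sets alcohol against the matched ration. Again no region of the locus passed the FDR with limma (0 of 120, against 0% of all regions), and the lowest adjusted p was 0.991. Only 3 regions (2.5%) had an unadjusted p under 0.05, 2 lower and 1 higher in PAE, against 4.44% of all (2.94% lower and 1.5% higher), and Fisher's exact test gave 0 (against 0.747% of all). The median difference was -0.06 at the locus and -0.02 over all regions, and 65.0% of the 120 were lower in PAE, against 56.4% of all. Median-ratio scaling gave a median of -0.04, with 3 lower and 2 higher (against 4.54% of all), and quantile normalization -0.02, with 0 lower and 3 higher (against 4.52%). Without the 18 libraries there were 7 of 116, against 4.51% of all.

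The 3 regions were chr18:30747640-30748317 (-0.22 ± 0.0921), chr18:30078040-30078589 (-0.59 ± 0.248) and chr18:29510923-29511577 (0.56 ± 0.243), each with an adjusted p of 0.991. Without the 18 libraries they were -0.03, -0.21 and 0.81. The first was called in 2 CON, 3 PF and 2 PAE libraries, with no height above 0.716. The other two are those described for PF against CON, and both comparisons share the PF libraries. The next lowest p values were above 0.05: chr18:30283528-30285362, with -0.31 ± 0.163, and chr18:29531733-29532050, with 0.17 ± 0.0938, where a peak was called in 3 PAE libraries and in 0 of the other groups. Without PAE_F 2 the latter was 0.10, and without the 18 libraries the former was -0.13.

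Within a labelled sex, 118 regions of the locus were tested with 5 libraries per group. None passed the FDR with limma in any of the comparisons, against 0% of all regions for each in labelled females and for PAE against CON in labelled males, and 0.000299% for PF against CON and PAE against PF in labelled males. With lane as a term, CON_F 41 and CON_F 45 did not enter the group differences in labelled females, since lane 7 held no other group there. CON and PF shared only lane 8, with CON_F 43 and PF_F 27. Without PAE_F 6, CON_F 43 was the only CON library labelled female in a lane with another group, so no count is given for that fit. In labelled females an unadjusted p under 0.05 was reached by 5 regions for PAE against CON (4 lower and 1 higher, against 4.26% and 1.99% of all regions). For PF against CON there were 4 (3 lower and 1 higher, against 3.78% and 2.33%), and for PAE against PF 0 (against 2.84% lower and 1.99% higher).

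In labelled males 5 regions for PAE against CON reached it, all lower (against 3.37% lower and 0.952% higher of all regions). For PF against CON there were 1 lower and 1 higher (against 2.75% and 0.904%), and for PAE against PF 6, all lower (against 2.1% lower and 1.41% higher). In either direction the shares of all regions were 6.26%, 6.1% and 4.83% in labelled females and 4.32%, 3.65% and 3.5% in labelled males, and those of the locus were 4.24%, 3.39%, 0%, 4.24%, 1.69% and 5.08% in the same order.

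The lowest p for PF against CON in labelled males was that of chr18:30078040-30078589. CON heights were 0.438, 0.438, 0.438, 0.725 and 1.12, PF heights 0.732, 0.846, 1.21, 1.39 and 1.53, and PAE heights 0.438, 0.611, 0.716, 0.812 and 0.950. The PF libraries were mostly higher, but the lowest of them lay within the CON range. The difference was 1.18 ± 0.311 (limma, unadjusted p = 0.0020, adjusted p = 0.950). It was 0.53 without the libraries against their label, where PF_M 27 was the only PF library sharing a lane with another group. For PAE against CON it was chr18:30083770-30084671 again, with -0.67 ± 0.256 (adjusted p = 0.734), and for PAE against PF chr18:29507264-29508468, with -0.92 ± 0.318 (adjusted p = 0.917).

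In labelled females the lowest p for PAE against CON and for PF against CON fell on chr18:29845317-29845717, with -0.62 ± 0.185 and -0.69 ± 0.222 (limma, adjusted p = 0.573 and 0.762). Of the CON libraries labelled female, 4 were at 0.438 and 1, CON_F 43, was at 1.01, while every PF and PAE library labelled female was at 0.438. Both differences therefore rest on 1 library, without which the region was at the floor throughout and was not tested. For PAE against PF the lowest p was at chr18:29846658-29847124 (-0.62 ± 0.315, adjusted p = 0.983), also among libraries mostly at the floor, and without PF_F 27 it was -0.24.

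The interaction of group and labelled sex tests whether a difference was unequal between the labelled sexes. It gave 0 of 120 regions past the FDR with limma for each comparison (against 0% of all regions), and 6, 7 and 6 (5%, 5.83% and 5%) at an unadjusted p under 0.05 for PAE against CON, PF against CON and PAE against PF, against 4.85%, 4.75% and 3.19% of all. The lowest p was at chr18:30080701-30081070 for PAE against CON, with an interaction (labelled female minus labelled male) of -1.38 ± 0.491 (adjusted p = 0.948). Its CON heights were 0.438, 0.438, 1.15, 1.20 and 1.65 in labelled females. In labelled males 4 CON libraries were at 0.438 and 1 was at 1.03. Every PAE library labelled female was at 0.438, and those labelled male were at 0.438, 0.438, 0.837, 0.886 and 0.931.

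Labelled sexes thus lay in opposite order in CON and PAE at that region. The second, chr18:29577074-29577965, had an interaction of -1.29 ± 0.515 (adjusted p = 0.948), with a peak in 4 labelled females and 2 labelled males of CON and in 1 and 4 of PAE. With 18 libraries against their label, neither value can be read as a difference between females and males.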

How the data were processed

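DNAm was measured by meDIP-seq, immunoprecipitation with an antibody against 5-methylcytosine, in 30 PFC libraries. The authors aligned the reads to Rn6 (BWA) and kept only paired, unduplicated alignments with a mapping quality of at least 10 (SAMtools). They called peaks per library with MACS2 (2.1.4 per the file headers) without input at q below 0.05. The deposited pileup is a signal (coverage) in fragments, with a fold enrichment ratio and a -log10 q-value per peak deposited beside it. The authors' later counting and batch correction were not used.

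Peaks were merged at an overlap of 1 bp, and sex chromosomes were left out of the comparisons. The highest pileup per 1000000 filtered fragments was set to a floor of 0.438 and tested on the log2 scale with limma 3.58.1 in R 4.3.3 (trended variance), with group, labelled sex and lane as terms (group and lane within a labelled sex). Benjamini-Hochberg adjustment covered every autosomal region called in 3 or more libraries, and regions at the floor throughout a fit were left out of it. Group, labelled sex, dam and lane were read from the sample labels. The 5 lanes held the groups unevenly (lane 4 no PF and lane 7 no PAE library). No pair of libraries had more than 0.0211% of peaks with identical start and end, so none was a repeat deposit. Libraries are single animals, and the same dam number in both labelled sexes marks 1 litter, so a random effect of dam was an alternative. The consensus correlation between littermates was -0.02. The counting error given is 1/square root of the pileup and covers no other source of spread. Its part in the spread between libraries was not tested.

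Named regions are the 6 always-called regions with the highest mean, the 5 with the lowest p per comparison, the lowest within each labelled sex, the 2 lowest interactions and the 3 longest. Regions, lists and tests were chosen with earlier results of these data known. Promoters were from RefSeq GRCr8. Alternatives were lane, labelled sex, floor, filter, scaling, q, overlap, litter, Fisher's exact test and left-out libraries.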

Additional observations from a re-analysis of the deposited data

Results flagged for a closer look

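Over the named regions and the per-library totals (regions called and summed height), 78 sets of 10 libraries were checked for a library far from the rest. Of these 13 had one, all at named regions and in each case the highest library. Chance alone flags about 1 in 20 such groups, and sets with most libraries at the floor of 0.438 are flagged readily by a single peak: in 5 of the 13 every other library was at the floor. In PF these were PF_M 22 at chr18:29510923-29511577 (0.806), PF_M 28 at chr18:29845317-29845717 (0.805) and PF_M 24 at chr18:30080701-30081070 (1.46). In PAE they were PAE_M 6 at chr18:29845317-29845717 (0.644) and PAE_F 2 at chr18:30747640-30748317 (0.477).

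In the other 8, a further library had a height above the floor. The PF libraries were PF_F 22 at chr18:29577074-29577965 (1.59, next 0.806) and at chr18:30150070-30150411 (0.759, next 0.583), PF_F 27 at chr18:29871249-29873064 (0.955, next 0.708) and PF_M 27 at chr18:29980337-29981013 (0.544, next 0.439). In CON, CON_F 43 stood at 0.935 at chr18:29980337-29981013, with the next at 0.562. The PAE libraries were PAE_F 2 at chr18:29531733-29532050 (0.885, next 0.619), PAE_M 6 at chr18:29846658-29847124 (0.772, next 0.573) and PAE_M 2 at the tallest region, chr18:29543726-29544520 (3.14, next 2.43). The last is the only one at a region called in every library.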

How the results depend on the processing

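For the fits of all libraries, 0 regions of the locus passed the FDR under each of 13 alternatives and with each library left out. The alternative without the libraries against their label kept 12 libraries, with PF_M 27 the only PF library in a lane with CON. The litter pairing, fitted as a replicate block (random effect of dam), left the counts at an unadjusted p under 0.05 at 9, 8 and 3. For PAE against CON (9) the count was 1 of 28 among regions called in all 30 libraries (3.57%, against 10.9% of all regions so tested), 4 with median-ratio scaling and 4 with quantile normalization (against 6.09% and 5.7%), 1 with Fisher's exact test (against 0.864%) and 3 to 11 with 1 library left out (3 without CON_F 43, or 2.5% against 6.45%, and 5 without PAE_F 3, or 4.17% against 5.95%). For PF against CON (8) it was 4 without the lane term (against 6.09%), 1 among regions called in all 30 libraries (against 5.83%), 4 without the libraries against their labelled sex (against 3.82%), 1 with Fisher's exact test (against 0.786%) and 6 to 10 with 1 left out. For PAE against PF (3) it was 1 without the lane term (against 3.63%), 0 among regions called in all 30 (against 5.22%), 5 with median-ratio scaling (against 4.54%), 0 with peaks covering at least 50% of the region (against 4.37%), 7 without the libraries against their label (against 4.51%), 0 with Fisher's exact test (against 0.747%) and 1 to 5 with 1 left out (5 without PAE_F 1, PAE_F 3 or PF_F 24, and 1 without PAE_M 6). Among labelled females, only CON_F 43 shared a lane between CON and another group when PAE_F 6 was left out. When CON_F 43 was left out, only PAE_F 6 shared a lane with CON. Lane is a term in these fits, which had 7 residual degrees of freedom, so their counts are not given. With any other library left out, the FDR count was 0 for PAE against CON and for PF against CON. Without PAE_F 6, chr18:29845317-29845717 stood at -1.20 for both. Among labelled males, leaving out the libraries against their label left 10 libraries and 3 residual degrees of freedom. PF_M 27 was then the only PF library that shared a lane with another group. The counts for PF against CON and for PAE against PF are therefore not given. One direction reversed: with peaks covering at least 50% of the region, PAE against CON at chr18:30083770-30084671 in labelled males was 0.18 (and -0.10 over all libraries). The cause was not tested. Labelled females could not be fitted without the libraries against their label, since 2 remained. Mean heights kept within 1 SD except with peaks covering at least 50%, where chr18:30562593-30564198 had 0.575 and chr18:30381622-30383549 0.508. At this depth a single height had a median counting error of 26.6% in the 28 always-called regions. Regions called in 3 to 29 libraries had lower called pileups (median 11 fragments), where this error is larger. No statement on absence of methylation can be made for libraries at the floor.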
